A study of Mus musculus with 23 samples.

Results

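The insulin-like growth factor (IGF) family was examined in tumors grown from 5 transplanted mouse cancer cell lines and in cancer-associated fibroblasts (CAFs) sorted from 4 of these models. The set was chosen by gene symbol and held 10 of the 24940 gene symbols in the deposited tables, namely the ligands Igf1 and Igf2, the receptor Igf1r, the binding proteins Igfbp2 to Igfbp7, and H19, the long non-coding RNA that neighbours Igf2. Of the transcripts listed for a symbol, the one whose mean was largest stood for the gene, and all 10 genes passed the filter on low values in tumors and in CAFs.

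IGF1 and IGF2 are secreted peptides that activate the tyrosine kinase IGF1R and, through adaptor proteins, the PI3K-Akt and MAPK pathways. Outside the cell they are held by IGF-binding proteins, which carry the ligands, limit or prolong their access to the receptor, and are themselves cut by proteases such as pappalysin. Igf2 and H19 lie beside each other in an imprinted cluster in which Igf2 is usually transcribed from the paternal and H19 from the maternal chromosome. In tumors, IGF ligands are known products of both cancer cells and fibroblasts.

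Adult female C57BL/6 mice received 500000 cells of a C57BL/6-derived line under the skin of the flank, and no treatment followed. The lines were B16 (B16-F10 melanoma), EO771 (EO771.LMB breast carcinoma), LL2 (lung carcinoma), MC38 (colon carcinoma) and Pan02 (pancreatic ductal carcinoma), with 3 tumors of each and 15 in all. CAFs were live FAP+ cells taken from the CD45- fraction of EO771, LL2, MC38 and Pan02 tumors, with 2 libraries per model and 8 in all. Each model is a single cell line, and every tumor grew under the skin whatever the organ of origin. CT26 and CAFs of B16 were not analysed here.

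Counts summed over genes ran from 10035173 to 21946486 per tumor (median 16541399). The depth of the CAF libraries, recovered from the read steps in their values, ran from 9270000 to 22840000 reads, with the lowest value in MC38 CAF 2. The labels did not say which tumors or sorts came from separate animals, so the tests measure the spread between these libraries. Summed levels of 7 melanocyte markers were 22590 to 28220 CPM in B16 tumors and at most 61.3 CPM in the others. All 10 fibroblast markers were above 0 in the CAFs of every model, and Fap ranged from 1.89 to 11.4 RPKM. Their sums were 9631 and 10530 RPKM in EO771 CAFs, 7261 and 8571 in LL2, and 2485 and 4085 in Pan02. The sorted cells also held epithelial transcripts: 8 epithelial markers summed to 892 and 1174 RPKM in the Pan02 CAF libraries, 495 and 502 in EO771, 210 and 215 in LL2, and 5.40 and 2.46 in MC38 (RPKM, reads per kilobase scaled by library total). Most of this sum was Krt8 and Krt18 in Pan02 and LL2 and Krt8 in EO771, and in the Pan02 CAFs Krt8 was at 385 and 545 RPKM and Krt18 at 349 and 483 RPKM. Whole MC38 tumors had epithelial marker sums of only 9.38 to 63.1 CPM. The low sums in MC38 CAFs therefore cannot show whether cancer cells were among them. Leukocyte markers summed to 59.8 and 72.0 RPKM in EO771 CAFs and to at most 12.7 RPKM in the other CAFs. The 2 MC38 CAF libraries stood apart from each other, with fibroblast marker sums of 7032 and 1619 RPKM. Several of the results that rest on them, but not all, are also given with a single MC38 library left out. In these bulk samples, fewer cells of a type and less RNA per cell cannot be told apart.

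Among the ligands, Igf2 marked the Pan02 model. The 3 Pan02 tumors had 1647, 1002 and 838 CPM (counts scaled to a common library total with edgeR's TMM factors), while the 12 tumors of the other models lay between 0.934 and 13.7 CPM. The groups did not overlap, and the nearest tumor was MC38 tumor 3. The log2 fold change of Pan02 against the mean of the other models was 8.78 ± 0.51 (SE, adjusted p = 1.51e-08, edgeR quasi-likelihood test). Between pairs of models, the 4 differences called for Igf2 were those that included Pan02, and the calls of lower Igf2 in B16 (log2 -3.05 ± 0.77) and EO771 (log2 -3.70 ± 0.82) were made against a mean that holds the Pan02 tumors. Below Pan02, the order MC38, LL2, B16, EO771 held no neighbouring pair that differed beyond its spread, with adjusted p between 0.134 and 0.944. LL2 tumors had 3.67, 1.88 and 9.39 CPM, and MC38 tumors had 1.30, 1.34 and 13.7 CPM. Skeletal muscle markers (6 genes) summed to 3.13, 812 and 1041 CPM in these LL2 tumors and to 900, 373 and 3038 CPM in these MC38 tumors, so the highest Igf2 value of each model lay in the tumor with the highest muscle sum. Adipocyte markers (6 genes) were also highest in LL2 tumor 3 (113 CPM, against 9.85 and 27.5) and MC38 tumor 3 (59.4 CPM, against 18.7 and 21.8), and keratinocyte markers (6 genes) in LL2 tumor 3 (87.9 CPM, against 5.57 and 3.55) but not in MC38 tumor 3. The part of these tissues in the values was not tested. Without MC38 tumor 3, Igf2 was called lower in MC38 (log2 -2.98, adjusted p = 0.000693), which it was not with all tumors (log2 -0.97 ± 0.65).

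**Figure D1:**
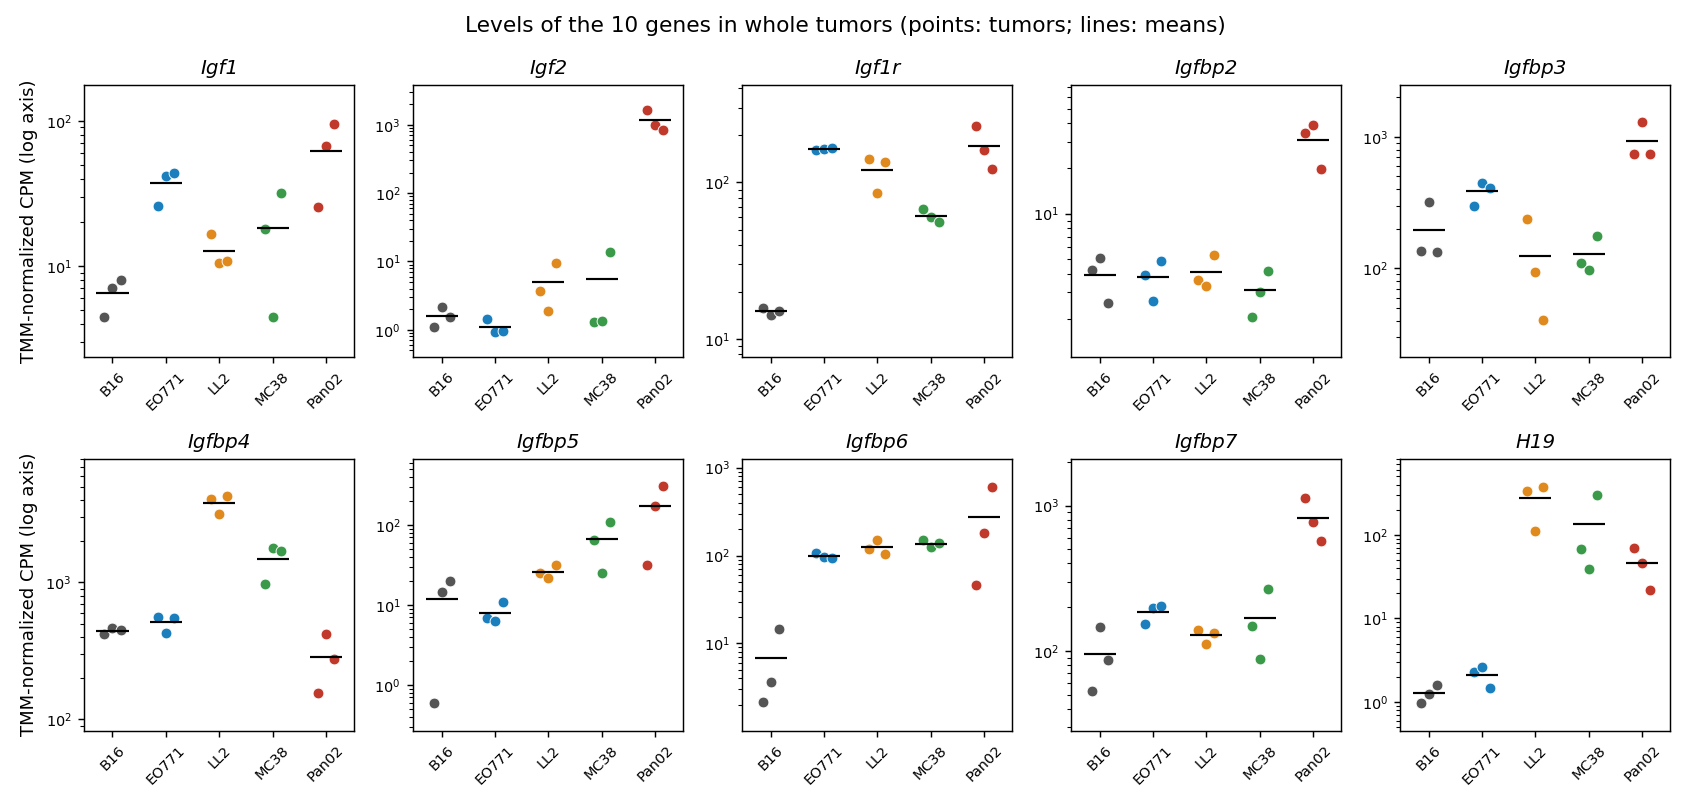
TMM-normalized CPM (log axes) of the 10 genes in whole tumors, with 1 point per tumor, 3 tumors per model and a line at each mean. Igf2 lies at 838 CPM or more in Pan02 and at 13.7 CPM or less elsewhere, while H19 and Igfbp4 are highest in LL2.

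Igf2 was also highest in the CAFs of Pan02. On the transcript that stood for Igf2 in that table, the Pan02 CAF libraries had 356 and 415 RPKM, the LL2 libraries 4.28 and 5.51, the MC38 libraries 4.54 and 0.985, and the EO771 libraries 0.189 and 0.146, which rest on 6 and 5 reads. Pan02 CAFs exceeded the mean of the other models by 7.09 ± 0.34 (SE) on the log2(RPKM + 1) scale (adjusted p = 6.16e-06, limma). The order was Pan02, LL2, MC38 and EO771, and LL2 and MC38 did not differ beyond their spread (difference 0.82 ± 0.41, adjusted p = 0.138). The call of lower Igf2 in EO771 CAFs (-4.07 ± 0.34, adjusted p = 0.000119) also held against MC38 alone (adjusted p = 0.0165), and that in MC38 CAFs (-2.06 ± 0.34) was -2.80 and -1.32 without MC38 CAF 1 and 2, in that order. On the transcript used for tumors, Pan02 CAFs had 276 and 319 RPKM and Pan02 tumors had 419, 255 and 213 RPKM. The 2 tables were scaled separately, so these levels are set side by side without a test. Pan02 CAFs also had the highest sum of epithelial markers, and the part of epithelial cells in their Igf2 was not tested.

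The Igf2 gene has several start sites, each with its own first exon ahead of shared exons, and the deposited tables count each transcript separately. Igf2 was represented in tumors by NM_001122736 (mm10, chr7:142650768-142661271, minus strand). The bases before the 4 RefSeq starts whose transcripts differ only in the first exon are shown, with the starts numbered from 5′ to 3′. The counts bear on the use of all of them but start 1. Capitals mark GC boxes (GGGCGG or its complement CCGCCC, searched on both strands).
Igf2 start 1 (chr7:142666817-142667066, minus strand): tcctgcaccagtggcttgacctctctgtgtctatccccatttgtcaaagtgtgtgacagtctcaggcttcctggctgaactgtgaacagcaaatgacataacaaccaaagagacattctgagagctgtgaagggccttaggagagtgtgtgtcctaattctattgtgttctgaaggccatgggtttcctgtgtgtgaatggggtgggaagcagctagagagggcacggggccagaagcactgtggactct
Igf2 start 2 (chr7:142661272-142661521, minus strand): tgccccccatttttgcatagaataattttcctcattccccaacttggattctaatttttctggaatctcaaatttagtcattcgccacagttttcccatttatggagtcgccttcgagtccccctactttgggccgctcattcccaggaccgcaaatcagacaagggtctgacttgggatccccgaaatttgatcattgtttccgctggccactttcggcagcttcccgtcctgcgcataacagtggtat
Igf2 start 3 (chr7:142658805-142659054, minus strand): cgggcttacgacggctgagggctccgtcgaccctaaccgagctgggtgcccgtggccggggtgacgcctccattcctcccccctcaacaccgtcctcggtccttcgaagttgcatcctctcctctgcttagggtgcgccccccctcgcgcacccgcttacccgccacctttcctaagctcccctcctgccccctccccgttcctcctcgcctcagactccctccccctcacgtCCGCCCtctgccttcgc
Igf2 start 4 (chr7:142657497-142657746, minus strand): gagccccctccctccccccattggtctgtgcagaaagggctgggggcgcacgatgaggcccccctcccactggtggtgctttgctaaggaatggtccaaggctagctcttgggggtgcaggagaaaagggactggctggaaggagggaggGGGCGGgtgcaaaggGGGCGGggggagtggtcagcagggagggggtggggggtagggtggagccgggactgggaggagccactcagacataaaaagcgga
These are the 250 bases before each start (RefSeq, build GRCm38.p6), and start 1 is at base 142666816, start 2 at 142661271, start 3 at 142658804 and start 4 at 142657496. Start 3 held 1 GC box and 22 CpG dinucleotides and start 4 held 2 GC boxes and 6 CpG, while starts 1 and 2 held no GC box and had 1 and 10 CpG. Over all 32851 promoters of this length, 32.74% held a GC box and the median was 6 CpG. TATAAA was in none of these 4 windows and in 12.37% of all promoters. A match or its absence describes the letters only.

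Reads over these first exons were taken as the count of each transcript minus that of the transcript from start 1, whose own first exon is short. The use of start 1 could not be measured in this way, so only start 2, start 3 and start 4 are compared. In the Pan02 tumors the first exon of start 2 gained 1534, 716.5 and 336 reads over 299 added bases, that of start 3 gained 1036, 390 and 134 reads over 400 bases, and that of start 4 gained 90, 20.5 and 5 reads over 68 bases. In the Pan02 CAFs the gains were 719 and 1022 reads for start 2, 367 and 415 for start 3, and 40.0 and 48.0 for start 4. In all 5 Pan02 libraries the read density fell in the order start 2, start 3 and start 4. Density over the first exon of start 2 was 1.98, 2.46 and 3.35 times that of start 3 in the tumors and 2.62 and 3.29 times in the CAFs. Relative to the density over the whole transcript from start 1, start 2 reached 57.9%, 61.6% and 30.0% in the tumors and 51.8% and 58.0% in the CAFs, so Pan02 tumor 3 had the lowest share although its Igf2 level was close to that of tumor 2. In tumors of the other models no first exon gained more than 4 reads, and in the other CAFs the differences lay between -2.97 and 4.47 reads, too few to show a start in use. The libraries did not keep the strand. In the annotation of the same build (GENCODE vM21), 98 exon bases of Igf2 were shared with the antisense gene Igf2os, part of them in the first exon of start 2, and 3596 of its 5723 exon bases were shared with Gm49394, an annotated gene on the same strand. Reads of Igf2 cannot be told apart from those of these genes where they overlap.

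**Figure D2:**
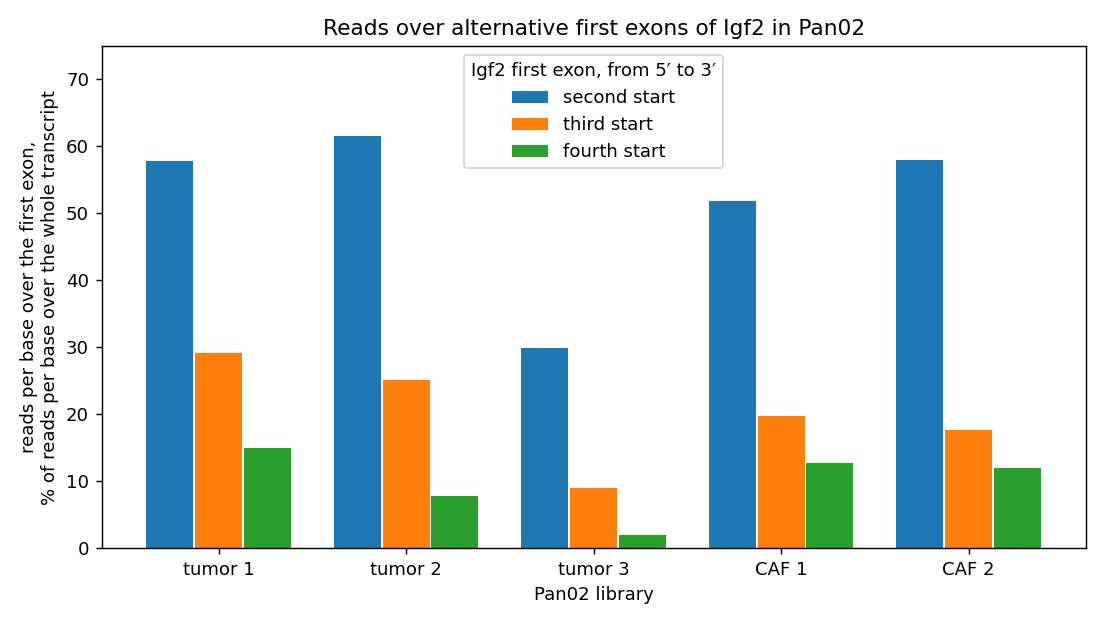
Read density over the alternative first exons of Igf2 in the 3 Pan02 tumors and 2 Pan02 CAF libraries, as a percentage of the density over the whole transcript. In every library the bars fall from start 2 to start 4, and tumor 3 has the lowest bars, with 30.0% at start 2.

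Igf1, the ligand made in many tissues under growth hormone and by macrophages and fibroblasts, was also highest on average in Pan02 tumors, with a wide spread. Igf1 (chr10:87859052-87937047, plus strand) was at 25.5, 67.1 and 94.7 CPM in Pan02 tumors and at 26, 41.6 and 43.5 CPM in EO771 tumors, which overlap. Macrophage markers (8 genes) summed to 1223, 2993 and 5351 CPM in the same Pan02 tumors, in the same order as Igf1. The orders also matched in MC38 tumors but not in LL2, EO771 or B16 tumors. In the LL2 tumors the sums were 1310, 1728 and 2497 CPM, and Igf1 was highest in the tumor with the lowest sum. The part of macrophages in the spread of Igf1 was not tested. LL2 tumors had 16.5, 10.4 and 10.9 CPM, MC38 tumors 18.1, 4.47 and 32.0 CPM, and B16 tumors 4.42, 7.03 and 7.98 CPM. Igf1 was called higher in Pan02 (log2 2.02 ± 0.39, adjusted p = 0.000552) and EO771 (log2 1.08 ± 0.41, adjusted p = 0.0405) and lower in B16 (log2 -2.04 ± 0.52, adjusted p = 0.00378). The EO771 call was lost when any of 8 single tumors was left out, namely B16 tumor 1 or 2, LL2 tumor 2 or 3, EO771 tumor 2 or 3 or MC38 tumor 1 or 2, with log2 values from 0.95 to 1.10. No neighbouring pair in the order Pan02, EO771, MC38, LL2, B16 differed beyond its spread. In CAFs Igf1 did not pass the test among models (adjusted p = 0.625), with 4.40 and 4.17 RPKM in EO771, 4.46 and 3.38 in LL2, 5.31 and 1.49 in MC38, and 3.11 and 2.79 in Pan02. None of its 6 pairs of CAF models was called. Per length, and with the Igf2 transcript used for tumors, the level of Igf1 was 1.02 to 27.5 times that of Igf2 in the CAFs of EO771, LL2 and MC38, and 0.00875 and 0.0113 times in Pan02 CAFs.

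Igf1r, the receptor for both ligands, was lowest in B16. Igf1r (chr7:67952257-68233667, plus strand) was at 15.7, 14.1 and 15.1 CPM in B16 tumors, 162, 164 and 166 CPM in EO771, 142, 85.1 and 136 CPM in LL2, 67.4, 60.1 and 55.6 CPM in MC38, and 229, 160 and 121 CPM in Pan02. The B16 tumors lay below all 12 others and the MC38 tumors lay between them and the rest. The log2 fold change was -3.0 ± 0.21 in B16 (adjusted p = 3.53e-08), 1.32 ± 0.15 in EO771 and 1.38 ± 0.15 in Pan02, and MC38 exceeded B16 by 2.03 ± 0.22 (adjusted p = 4.56e-06). EO771 and Pan02 did not differ beyond their spread (log2 0.05 ± 0.21). MC38 was also the low model among CAFs, with 3.16 and 4.05 RPKM against 7.74 to 12.7 RPKM in the 6 other libraries (-1.19 ± 0.12 on the log2 scale, adjusted p = 0.000153). Pan02 CAFs had 12.2 and 12.7 RPKM, which were the highest values but fell short of the required difference of 1 (0.89 ± 0.12), and exceeded LL2, the next model, by 0.54 ± 0.14 (adjusted p = 0.0224).

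The binding proteins differed in which model carried them. Igfbp2, Igfbp3 and Igfbp7 were highest in Pan02 tumors, and Igfbp4 was lowest there on average. Igfbp4, which mostly inhibits IGF action until it is cut by pappalysin, was the most abundant binding protein per length in 12 of the 15 tumors. Igfbp4 (chr11:99041244-99052655, plus strand) reached 4080, 3143 and 4249 CPM in LL2 tumors and 977, 1785 and 1705 CPM in MC38 tumors. It was at 420, 464 and 448 CPM in B16, 557, 429 and 550 CPM in EO771, and 157, 423 and 278 CPM in Pan02. LL2 and MC38 tumors overlapped neither each other nor the rest. LL2 exceeded the mean of the other models by 2.78 ± 0.20 (adjusted p = 2.49e-07) and MC38, the next model, by 1.36 ± 0.30 (adjusted p = 0.00243), and Pan02 lay 1.90 ± 0.27 below the mean of the others (log2 -1.90, adjusted p = 4.12e-05). The Pan02 difference was taken against a mean that holds the LL2 and MC38 tumors. B16, the model next to Pan02, exceeded it by 0.64 ± 0.30 (edgeR adjusted p = 0.0764), which was not called, and their tumors overlapped. The MC38 value against the mean of the others (1.08 ± 0.22) dropped to 0.93 without MC38 tumor 2 or 3, under the required 1.

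The same order stood in the CAFs for Igfbp4. LL2 CAFs had 1738 and 1871 RPKM, MC38 CAFs 1594 and 887, EO771 CAFs 309 and 391, and Pan02 CAFs 147 and 72.1. LL2 (2.36 ± 0.32) and MC38 (1.56 ± 0.32) were called higher and Pan02 (-3.13 ± 0.32, adjusted p = 0.000206) lower. LL2 and MC38 did not differ beyond their spread (0.60 ± 0.39), while MC38 exceeded EO771 by 1.77 ± 0.39 and EO771 exceeded Pan02 by 1.75 ± 0.39. Per length, LL2 tumors had 1954, 1505 and 2035 RPKM, beside the values of the LL2 CAFs.

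Igfbp3, the main carrier of IGFs in the circulation, was at 736, 1302 and 741 CPM in Pan02 tumors, above every other tumor. Igfbp3 (chr11:7206091-7213923, minus strand) ran from 300.1 to 445 CPM in EO771, from 133 to 317 CPM in B16, from 98.0 to 176 CPM in MC38, and from 40.6 to 239 CPM in LL2. Pan02 was called higher (log2 2.32 ± 0.36, adjusted p = 9.15e-05), and LL2 (-1.31 ± 0.45, adjusted p = 0.0319) and MC38 (-1.25 ± 0.45, adjusted p = 0.0314) lower. The LL2 call was lost without LL2 tumor 2 (-1.13) or 3 (-0.88), and the MC38 call without MC38 tumor 1 (-1.16) or 2 (-1.09). In CAFs Igfbp3 lay between 11.9 and 67.4 RPKM and only MC38 was called, lower, with 34.7 and 11.9 RPKM (-1.29 ± 0.35, adjusted p = 0.0142). Without MC38 CAF 2 this became -0.56. Pan02 CAFs had 62.6 and 50.5 RPKM, close to the 67.4 and 63.2 RPKM of EO771 CAFs (difference 0.21 ± 0.42), while the Pan02 tumors had 302, 535 and 304 RPKM.

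Igfbp7, which binds IGFs weakly and is abundant in vessels and matrix, was also highest in Pan02 tumors. Igfbp7 (chr5:77349240-77408045, minus strand) was at 1128, 773 and 567 CPM in Pan02 tumors and between 52.9 and 265 CPM in the 12 others. Pan02 was called higher (log2 2.56 ± 0.27, adjusted p = 2.86e-06) and B16 lower (-1.33 ± 0.34, adjusted p = 0.00362). In CAFs it did not pass the test among models (adjusted p = 0.508), with 559 and 633 RPKM in EO771, 459 and 458 in Pan02, 294 and 277 in LL2, and 972 and 175 in MC38. The MC38 libraries spanned all the others. Against the other models, MC38 CAFs stood at -0.05 ± 0.54 with both libraries, at 1.19 (adjusted p = 0.000436) without MC38 CAF 2 and at -1.28 (adjusted p = 0.000263) without MC38 CAF 1. Of the 1209 annotated exon bases of Igfbp7, 85 (7.03%) were shared with Polr2b on the other strand.

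Igfbp2, which is common in epithelia and fetal tissue, was at 34.3, 38.8 and 19.9 CPM in Pan02 tumors and between 2.07 and 5.32 CPM in the 12 others, with no overlap. Igfbp2 (chr1:72824480-72852471, plus strand) was called higher in Pan02 (log2 3.07 ± 0.23, adjusted p = 1.63e-07), and its 4 called pairs were those with Pan02. The lower call in MC38 (-1.10 ± 0.30) was lost without MC38 tumor 1 (-0.87) and with total-count scaling (-0.95). Pan02 CAFs, with 3.18 and 3.51 RPKM, were not called (0.58 ± 0.21, adjusted p = 0.0502), and EO771 CAFs had 3.16 and 5.00 RPKM and MC38 CAFs 3.56 and 1.87. LL2 CAFs were lowest, with 0.430 and 0.284 RPKM, from 9 and 6 reads (-1.66 ± 0.21, adjusted p = 0.00123). On the transcript used for tumors, Pan02 tumors had 25.9, 29.4 and 15.1 RPKM and Pan02 CAFs 3.23 and 3.0 RPKM.

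Igfbp5 and Igfbp6 varied widely between the Pan02 tumors. Igfbp5, a matrix-bound protein of fibroblasts and muscle that lies next to Igfbp2 (chr1:72858065-72874865, minus strand), was at 31.5, 172 and 307 CPM in Pan02 tumors, a range of 9.74 times. It was at 65.3, 25.3 and 109 CPM in MC38, 25.3, 21.5 and 31.2 CPM in LL2, 6.78, 6.37 and 10.8 CPM in EO771, and 0.589, 14.6 and 20.0 CPM in B16. Pan02 was called higher (log2 3.08 ± 0.55, adjusted p = 0.000289) and EO771 lower (-2.45 ± 0.78, adjusted p = 0.0173), the latter lost without EO771 tumor 1 (-2.34) or 2 (-2.31). No neighbouring pair in the order Pan02, MC38, LL2, B16, EO771 differed beyond its spread. MC38 (1.38 ± 0.59) and B16 (-1.70 ± 0.73) were not called with all tumors and became so when certain single tumors were left out, with values of 1.25 to 1.77 in MC38 and -1.79 and -1.81 in B16. In CAFs the order was EO771 (25.4 and 21.0 RPKM), LL2 (23.3 and 16.3), MC38 (20.1 and 6.19) and Pan02 (8.22 and 5.6), and Pan02 was called lower (-1.23 ± 0.38, adjusted p = 0.027). That call was lost without any of EO771 CAF 1, Pan02 CAF 1, Pan02 CAF 2, MC38 CAF 1 or LL2 CAF 1, with values from -1.47 to -0.97.

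Igfbp6, which prefers IGF2 to IGF1, was at 46.5, 180 and 598 CPM in Pan02 tumors, a range of 12.9 times. Igfbp6 (chr15:102144186-102149512, plus strand) lay between 94.6 and 149 CPM in the 9 tumors of EO771, LL2 and MC38, and at 2.16, 3.67 and 14.5 CPM in B16 tumors. B16 was called lower (log2 -4.37 ± 0.75, adjusted p = 0.00018) and was the lower side of each of the 4 called pairs. Without B16 tumor 3 the value was -5.61. The higher call in Pan02 (2.23 ± 0.48, adjusted p = 0.00121) rested on Pan02 tumor 3, without which it was 0.94 (adjusted p = 0.092). In CAFs Pan02 was lowest, with 45.6 and 43.6 RPKM against 118 to 214 RPKM in the 6 other libraries (-1.75 ± 0.20, adjusted p = 0.000355). Across the 3 Pan02 tumors, the sum of fibroblast markers was 47490, 50790 and 45150 CPM, that of macrophage markers was 1223, 2993 and 5351 CPM, and that of skeletal muscle markers was 832, 196 and 35.5 CPM. Their part in the spread of Igfbp5 and Igfbp6 was not tested.

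**Figure D3:**
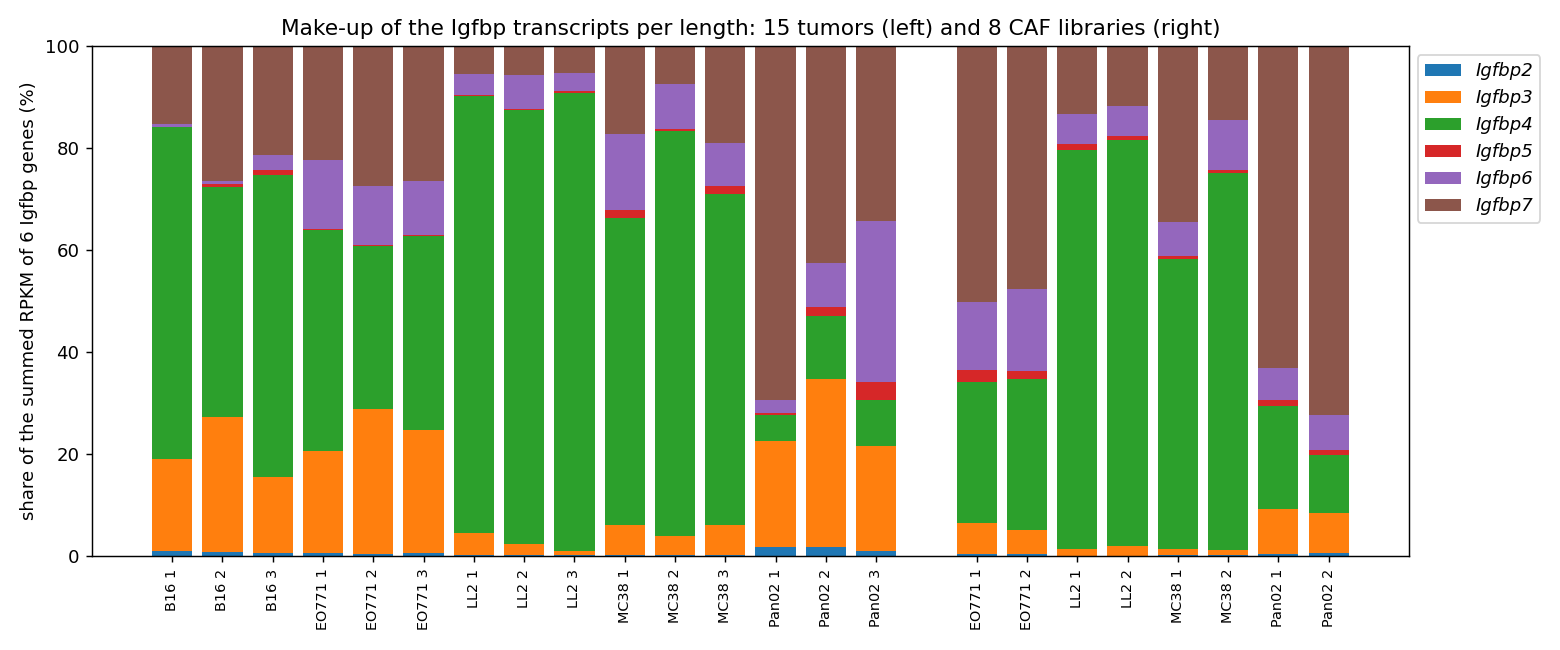
Share of each of the 6 Igfbp genes in their summed RPKM (per length, linear axis from 0 to 100%), in 15 tumors and 8 CAF libraries. Igfbp4 makes up 85.2% to 89.9% in LL2 tumors and 78.2% to 79.7% in LL2 CAFs, and Igfbp7 is the largest part in Pan02.

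Seen together per length, the 6 binding protein genes summed to 1766 to 2277 RPKM in LL2 tumors, 1458 to 1632 in Pan02, 776 to 1256 in MC38, 616 to 693 in EO771 and 309 to 493 in B16. Igfbp4 made up 85.2% to 89.9% of this sum in LL2 tumors and 5.14% to 12.4% in Pan02 tumors. In Pan02 tumors Igfbp7 took 34.4% to 69.5%, Igfbp3 20.6% to 32.8% and Igfbp6 2.48% to 31.5%. In CAFs Igfbp4 took 78.2% to 79.7% in LL2 and 56.7% to 73.9% in MC38, and Igfbp7 took 63.2% to 72.4% in Pan02 and 47.7% to 50.3% in EO771. Igfbp2 and Igfbp5 stayed at or below 3.55% in every tumor and CAF library.

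H19 did not share the Pan02 peak of its neighbour Igf2 and was highest on average in LL2 tumors. Within the Pan02 tumors and within the LL2 tumors, H19 and Igf2 ranked the tumors in the same order. Within the MC38 tumors the orders differed, as they did in EO771 and B16 tumors, where both genes were low. H19 (chr7:142575530-142578146, minus strand), which also holds the precursor of miR-675, was at 331, 111 and 378 CPM in LL2 tumors, 68.6, 39.1 and 301 CPM in MC38, 70.2, 46.4 and 21.6 CPM in Pan02, and between 0.982 and 2.63 CPM in the 6 tumors of B16 and EO771. LL2 (log2 4.57 ± 0.46, adjusted p = 4.13e-06) and MC38 (3.30 ± 0.47, adjusted p = 5.94e-05) were called higher, and B16 (-5.05 ± 0.80) and EO771 (-4.17 ± 0.75) lower. LL2 and MC38 overlapped and did not differ beyond their spread (log2 1.01 ± 0.64), whereas LL2 exceeded Pan02 by 2.57 (adjusted p = 0.00633). Pan02 was called higher (1.35 ± 0.50, adjusted p = 0.0312), a call lost without Pan02 tumor 1 (0.89, adjusted p = 0.208) or 2 (1.35, adjusted p = 0.0724). MC38 tumor 3 held much of the MC38 value, which was 1.94 without it, and it also had the highest sum of skeletal muscle markers. LL2 tumor 1 had 331 CPM of H19 and a muscle marker sum of 3.13 CPM. The part of muscle in the H19 values was not tested.

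In CAFs H19 was at 261 and 304 RPKM in LL2, 121 and 39.9 in MC38, 7.66 and 9.52 in EO771, and 11.2 and 5.46 in Pan02. LL2 was called higher (3.96 ± 0.40, adjusted p = 0.000482) and Pan02 (-2.69 ± 0.40) and EO771 (-2.56 ± 0.40) lower, and LL2 exceeded MC38 by 2.00 ± 0.49 (adjusted p = 0.0128). The higher call in MC38 CAFs (1.29 ± 0.40, adjusted p = 0.026) was lost without MC38 CAF 1 (0.51), and also without EO771 CAF 1 (1.25), LL2 CAF 1 (1.26) or LL2 CAF 2 (1.33). The ratio of H19 to Igf2, per length and on the same transcripts, was 69.4 to 156 in LL2 tumors and 0.0444 to 0.0798 in Pan02 tumors, and 91.1 and 91.6 in LL2 CAFs and 0.0407 and 0.0171 in Pan02 CAFs. In MC38 it was 37.8 to 91.0 in tumors, which overlaps the LL2 tumors, and 48.4 and 66.1 in CAFs. In EO771 it was 2.66 to 4.85 in tumors, where both genes were low. The EO771 CAFs had ratios of 47.9 and 53.5, over Igf2 levels of only 0.16 and 0.178 RPKM.

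**Figure D4:**
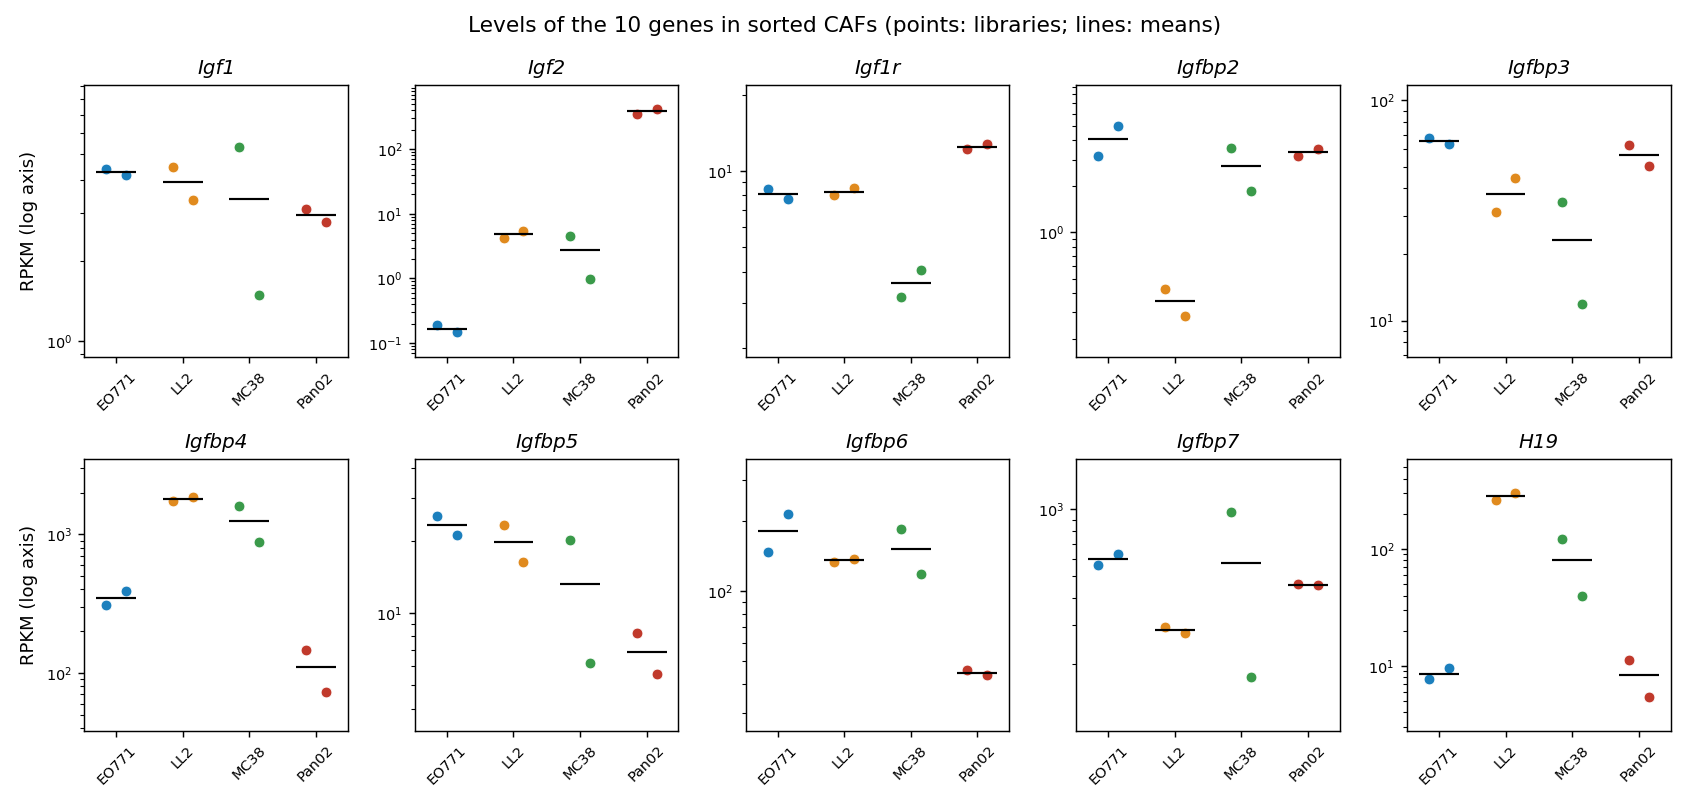
Deposited RPKM (log axes) of the 10 genes in sorted CAFs, with 1 point per library, 2 libraries per model and a line at each mean. Pan02 CAFs have 356 and 415 RPKM of Igf2 and at most 5.51 RPKM is seen elsewhere, and LL2 CAFs lead in H19 with 261 and 304 RPKM.

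Over all comparisons, the counts of the 10 genes were read beside those of all genes tested. In the F test over the 5 tumor models all 10 passed (adjusted p under 0.05), as did 91.1% of 15722 genes. Calls in a single model, against the mean of the other models, needed that p and also a shift of 1 or more on the log2 scale. In Pan02 tumors 9 of the 10 were called higher and 1, Igfbp4, lower, where 18.8% of all genes were higher and 7.93% lower, and their median log2 fold change was 2.27 beside 0.05 for all genes. In B16 tumors 7 were lower and 0 higher (19.6% and 13.1% of all genes), with a median of -1.87 beside -0.03. In EO771 tumors 2 were higher and 3 lower (9.71% and 13.7%), in LL2 tumors 2 higher and 1 lower (8.51% and 8.29%), and in MC38 tumors 2 higher and 2 lower (11.2% and 8.24%). Marker lists moved in these models too. Fibroblast markers were higher in Pan02 (10 of 10) and lower in B16 (10 of 10), with sums of 45150 to 50790 and 407 to 1686 CPM. Epithelial markers were higher in Pan02 (7 of 7 tested, median log2 5.69) and lower in B16 (5 of 7), with sums of 2337 to 3586 and 8.45 to 13.5 CPM. Of the macrophage markers 4 of 8 were higher in Pan02 and 8 of 8 lower in B16, with sums of 1223 to 5351 and 429 to 735 CPM, and of the leukocyte markers 0 of 8 were called in Pan02 and 8 of 8 were lower in B16. Skeletal muscle markers were higher in Pan02 (4 of 6) and lower in B16 (4 of 6). The part of these cells in the values of the family was not tested. Over the 10 pairs of models, 56 of 100 gene and pair combinations were called (56.0%), near the 54.6% of all genes.

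In the F test over the 4 CAF models 8 of 10 passed, as did 80.4% of 13598 genes, and the exceptions were Igf1 and Igfbp7. In Pan02 CAFs 1 gene, Igf2, was higher and 4, namely Igfbp4, Igfbp5, Igfbp6 and H19, were lower (9.73% and 8.41% of all genes). In the same CAFs 7 of 8 pericyte and smooth muscle, 5 of 7 tested endothelial and 3 of 10 fibroblast markers were lower and 6 of 8 epithelial markers higher, and their part in the lower values was not tested. In EO771 CAFs 0 were higher and 2 lower (8.05% and 7.06%), in LL2 CAFs 2 were higher and 1 lower (3.89% and 5.13%), and in MC38 CAFs 2 were higher and 3 lower (10.9% and 9.87%). The medians over the family lay between -0.14 and 0.48, beside -0.03 to 0.00 for all genes. Over the 6 pairs of models, 30 of 60 combinations were called (50%), near the 48.1% of all genes.

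**Figure D5:**
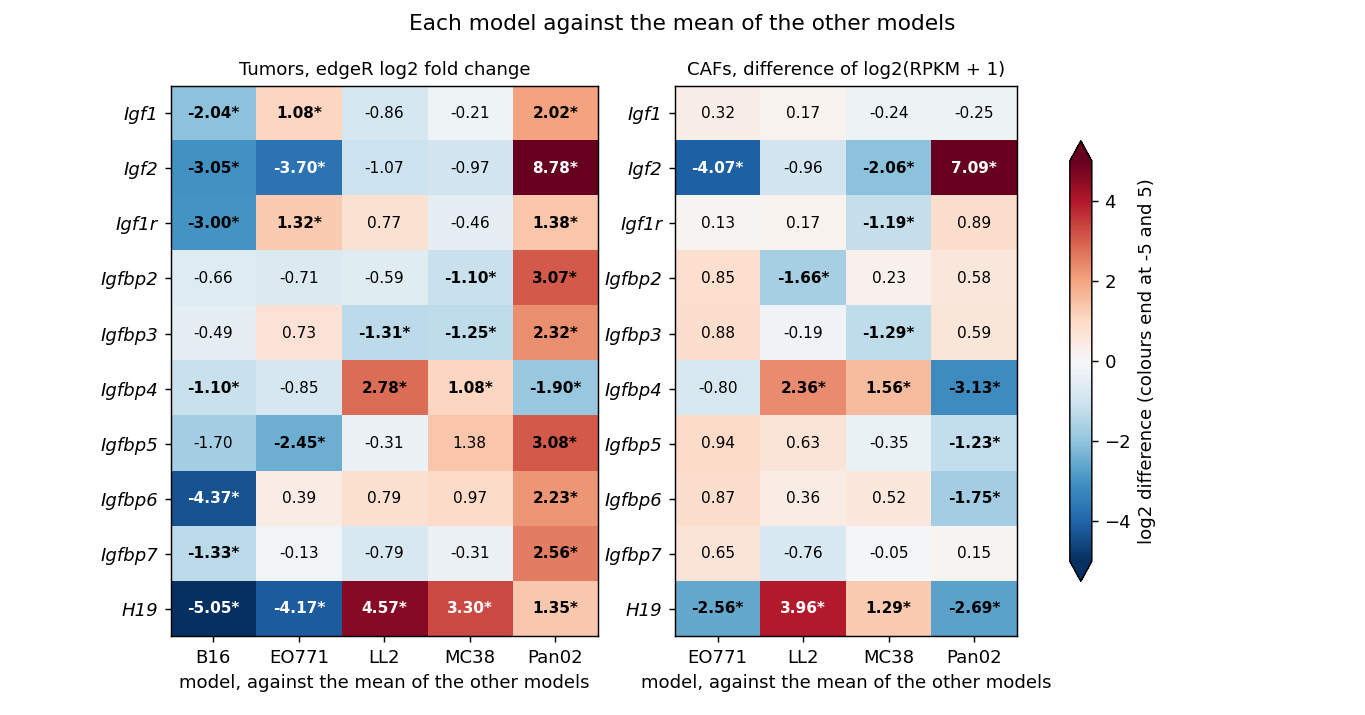
Log2 difference of each model from the mean of the other models for the 10 genes, in tumors (edgeR) and in CAFs (limma, on log2(RPKM + 1)), with called values starred. In tumors the Pan02 column is starred in all 10 rows, from -1.90 for Igfbp4 to 8.78 for Igf2, and in CAFs it is starred in 5 rows.

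The wider pathway was followed through lists of other genes. Their counts stand beside 91.1% of all genes in the F test over tumor models and 80.4% over CAF models, and calls in a single model beside the shares given above, so a list in which nearly all members passed the F test did not stand apart from all genes. Of the 3 IGF2 mRNA-binding proteins, which bind and stabilise Igf2 and other messages, all passed the F test in tumors and in CAFs. In LL2 all 3 were higher, in tumors (Igf2bp1 3.66 ± 0.36, Igf2bp3 2.88 ± 0.15 and Igf2bp2 2.63 ± 0.17, log2) and in CAFs (Igf2bp2 2.00 ± 0.21, Igf2bp3 1.34 ± 0.13 and Igf2bp1 1.33 ± 0.10). In Pan02 tumors, where Igf2 was highest, 2 were lower, Igf2bp3 (-2.66 ± 0.22) and Igf2bp2 (-2.01 ± 0.23), and in Pan02 CAFs Igf2bp2 was lower (-1.52 ± 0.21). In the remaining tumors 1 was higher and 2 lower in EO771, 1 higher and 1 lower in MC38 and 2 lower in B16, and in the remaining CAFs 1 was lower in MC38 and 0 were called in EO771.

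Of the proteases that cut binding proteins and the stanniocalcins that inhibit pappalysin, 5 of 5 passed the F test in tumors, where 91.1% of all genes did. In Pan02 tumors 3 were higher, the protease Pappa (log2 4.79 ± 0.45), its inhibitor Stc2 (4.53 ± 0.20) and Htra1 (2.61 ± 0.15), and 1 was lower. In B16 tumors 4 were lower, led by Htra1 (-5.28 ± 0.24), and in LL2 tumors 3 were higher and 1 lower, led by Stc1 (2.95 ± 0.25). In MC38 tumors 2 were higher and 1 lower, led by Stc2 (4.05 ± 0.20), and in EO771 tumors 1, Stc2, was lower (-2.76 ± 0.32). In CAFs 3 of the 5 could be tested and all 3 passed, where 80.4% of all genes did. LL2 CAFs had 1 higher, Stc1 (3.51 ± 0.25), Pan02 CAFs 1 higher, Stc2 (1.44 ± 0.15), and 1 lower, Stc1 (-1.67 ± 0.25), MC38 CAFs 1 lower, Stc1 (-1.58 ± 0.25), and EO771 CAFs 1 lower, Stc2 (-1.65 ± 0.15).

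Of the 7 other ligands, receptors and binding proteins, 5 were tested in tumors and 3 passed the F test (91.1% of all genes). All 3 tested in CAFs passed (80.4% of all genes). Igf2r, the receptor that clears IGF2, was higher in LL2 tumors (log2 1.58 ± 0.16) and B16 tumors (1.15 ± 0.17) and lower in EO771 tumors (-2.19 ± 0.21), and the LL2 and EO771 differences had the same signs in CAFs (2.11 ± 0.14 and -1.46 ± 0.14). Insrr, an insulin receptor relative, was higher in MC38 tumors (4.42 ± 0.29) and MC38 CAFs (1.58 ± 0.12) and lower in LL2 (-2.78 ± 0.47) and EO771 (-1.18 ± 0.43) tumors. The lower calls rest on 0, 5 and 5 counts in LL2 tumors and 11, 4 and 6 in EO771 tumors. They were made against means that hold the MC38 tumors, with 226, 217 and 169 counts. In Pan02, 0 of these genes were called in tumors or in CAFs.

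Of the 13 genes of the receptor adaptor and PI3K-Akt list, 13 passed the F test in tumors and 12 in CAFs, near the 91.1% and 80.4% of all genes. In Pan02, 4 were higher in tumors, led by the adaptor Irs1 (log2 3.41 ± 0.21) and the Akt-regulated factor Foxo1 (2.45 ± 0.16), and 3 in CAFs, led by Foxo1 (2.68 ± 0.16) and Irs1 (1.93 ± 0.19), with 0 lower in either. Irs1 was lower in EO771 tumors (-4.23 ± 0.34) and EO771 CAFs (-1.98 ± 0.19). Counts of higher and lower genes were 1 and 4 in B16 tumors, 0 and 3 in EO771, 3 and 0 in LL2 and 1 and 3 in MC38, and 0 and 1 in EO771 CAFs, 2 and 1 in LL2 and 0 and 3 in MC38, the last led by Irs2 (-2.87 ± 0.41).

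In the growth hormone list all 5 genes passed the F test in tumors and in CAFs, where 91.1% and 80.4% of all genes did. Ghr, the growth hormone receptor, was higher in LL2 tumors (log2 3.79 ± 0.13) and LL2 CAFs (2.62 ± 0.14) and lower in EO771 tumors (-2.57 ± 0.19), EO771 CAFs (-1.14 ± 0.14) and Pan02 CAFs (-1.53 ± 0.14). Pan02 tumors had 2 higher, the feedback inhibitors Cish (3.51 ± 0.34) and Socs2 (3.01 ± 0.21), and Pan02 CAFs had Cish higher (1.37 ± 0.20). In all, 3 were lower in EO771 tumors, 1 lower in B16 and 0 called in MC38, and LL2 CAFs had 1 lower, Socs2 (-1.05 ± 0.17).

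Other imprinted genes were led by different models. Of 13 tested, 12 passed the F test in tumors, near the 91.1% of all genes, and 9 in CAFs, where 80.4% of all genes did. The gap from that share was not tested. In Pan02 tumors 5 were higher and 2 lower, led by Meg3 (log2 2.76 ± 0.49), Ndn (2.40 ± 0.35) and Peg10 (-2.39 ± 0.32), whereas in Pan02 CAFs, with the lower marker lists given above, 0 were higher and 6 lower, led by Meg3 (-2.25 ± 0.44), Sgce (-2.17 ± 0.30) and Peg10 (-1.87 ± 0.18). In LL2, where H19 was highest, 4 were higher in tumors and 4 in CAFs, among them Peg3 (4.26 ± 0.40 and 2.78 ± 0.14), with 3 and 1 lower. In B16 tumors 6 were higher and 5 lower, led by Plagl1 (6.68 ± 0.28), and Phlda2 was higher in EO771 tumors (6.82 ± 0.42) and EO771 CAFs (4.12 ± 0.18), where 1 and 4 genes were higher and 5 and 2 lower. In MC38, 3 were higher and 1 lower in tumors and 1 lower in CAFs.

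Of the 11 chromosomal neighbours of Igf2 and H19, 9 were tested in tumors and all passed the F test (91.1% of all genes). In CAFs 5 of 8 passed (80.4% of all genes). In Pan02 tumors 7 were higher and 0 lower (18.8% and 7.93% of all genes), led by Syt8 (log2 6.60 ± 0.23), Tnnt3 (2.83 ± 0.96) and Tnni2 (2.22 ± 0.76), and in Pan02 CAFs 3 were higher (9.73% of all genes), led by Syt8 (3.88 ± 0.13) and Tnni2 (2.46 ± 0.20). Tnnt3 and Tnni2 encode troponins of fast skeletal muscle, and the summed muscle markers of tumors varied as given above, while they were at or below 7.07 RPKM in every CAF library. In LL2 tumors 3 were higher and 1 lower and in LL2 CAFs 2 were lower, with Syt8 lower in both (-3.23 ± 0.44 and -3.36 ± 0.13). MC38 had 2 higher in tumors and 2 in CAFs, EO771 had 3 lower in each, and B16 had 5 lower.

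As a description of likeness, the log2(CPM + 1) of each of the 10 genes over the 15 tumors was compared with 10564 other genes with a mean of at least 10 CPM. The points are 3 tumors of each of 5 models and share their model, so a gene raised in a single model has many likenesses. Igf2 was most like Atp1b1, Bmp4 and Rtn4rl1 (Pearson r of 0.98 for each), Igfbp2 like Ptprf, Foxq1 and Plekha6 (0.97), and Igfbp7 like Myo1d, Ttc9 and Sorcs2 (0.96 to 0.97). H19 was most like Ptn (0.96), Cacna2d1 (0.94) and Camkk1 (0.93), and Igfbp4 like Gpr149 (0.95), Syne1 and Tbkbp1 (0.94). Igfbp5 was most like Clec3b, Col14a1 and Mfap5 (0.92 to 0.93). Igf1r was most like Notch2, Ldlrad4 and Zmiz1 (0.98), Igf1 like Abca1, Nbl1 and Azin2 (0.91 to 0.94), Igfbp3 like Zscan26, Pcdh1 and Decr2 (0.90 to 0.91), and Igfbp6 like Adam15, Mcub and Rnh1 (0.93).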

How the data were processed

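Unstranded libraries of poly(A)-selected RNA of tumor fragments and of sorted CAFs were sequenced. According to the study's methods and the submitters' processing notes, the authors aligned reads to mm10 with STAR 2.5.0c and counted them over the exons of 40458 RefSeq transcripts with HOMER. The authors deposited expected counts (steps of 0.5, not normalized) for tumors, whatever the name of that table, and RPKM (reads per kilobase scaled by library total) for CAFs. Transcripts without a gene name (2) were left out, and 5 columns that matched no sample used here were not used.

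Here, edgeR 4.0.16 tested the tumors by quasi-likelihood over 15722 genes that passed filterByExpr, after rounding counts up and TMM scaling. For CAFs, limma 3.58.1 with a variance trend was run on log2(RPKM + 1) of the 13598 genes that reached 1 RPKM in 2 or more libraries. A pseudocount of 1 shrinks differences of low genes. P values were adjusted over all genes tested by the Benjamini-Hochberg method, and the fits had no covariate. The tests were F tests over models, each model against the mean of the others, and pairs of models. The members and lists were chosen with earlier results of these data known. All members were named; of other lists, up to 3 called genes with the largest change per list and comparison; and the 3 genes most correlated with each member. Cell type lists served as markers. The values of 1 gene of the adaptor list are not reported here.

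CAF reads were recovered from RPKM, length and depth, with 99.9% to 100% of values under 50 reads within 0.1 of a multiple of 0.5, and edgeR on these reads called 12037 of 15519 genes among the CAF models. In simulated tumor data of 15372 genes, edgeR recovered 87 of 100 genes changed 2-fold and 100 of 100 changed 4-fold in Pan02 against the mean of the others, with 9 false calls. In simulated CAF data of 13598 genes limma recovered 91 and 100, with 6 false calls. These were counted at adjusted p under 0.05 alone, without the log2 shift of 1 that calls in a single model also needed. The median log2 of the 2-fold genes was 1.03 in tumors and 0.96 in CAFs, and recovery with that shift was not counted. Each simulation gave all genes the same spread, and the changed CAF genes were drawn from those with higher levels. Recovery was therefore not measured for unusually variable genes, or for low genes in CAFs. Alternatives covered DESeq2 1.42.0, scaling, the filter, the pseudocount, the transcript, rounding, the fold threshold, a replicate block and leaving out each library. Software was Python 3.11.15 with matplotlib 3.10.9, pandas 2.3.3 and numpy 2.4.6, and R 4.3.3. Positions are mm10, and exon overlaps are from GENCODE vM21.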

Additional observations from a re-analysis of the deposited data

Results flagged for a closer look

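For some of the 10 genes, every tumor of a model lay on one side of the mean of the other shared models and every CAF library of that model on the other side. Values are mean differences on log2(CPM + 1) in tumors and log2(RPKM + 1) in CAFs, over the 4 models that have both, and the difference between tumors and CAFs was not tested, since the tables were scaled separately. In Pan02, Igfbp5 stood at 2.33 in tumors and -1.23 in CAFs, and Igf1 at 1.51 and -0.25. In EO771 the signs were the other way round: Igfbp5 stood at -2.70 in tumors and 0.94 in CAFs, Igfbp2 at -0.85 and 0.85, Igfbp6 at -0.52 and 0.87, and Igfbp7 at -0.44 and 0.65. In LL2, Igf1 stood at -1.24 and 0.17, and Igfbp5 at -0.56 and 0.63. For Igf1 the lower of the LL2 CAF libraries stood at 0.008. Neither Igf1 nor Igfbp7 passed the F test among CAF models, and none of their pairs of CAF models was called. Each CAF side rests on 2 libraries, and how many of all genes show such opposite signs was not counted.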

How the results depend on the processing

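All 10 genes differed among the tumor models under every alternative and with each tumor left out, and the Igf2 excess in Pan02 was called throughout in tumors and CAFs. Leaving out each library in turn, with a lone library assumed to vary like the other groups, gave 8 to 9 genes higher in Pan02 tumors, 7 to 8 lower in B16 tumors, 1 to 2 higher and 2 to 3 lower in EO771 tumors, 2 to 3 higher and 0 to 1 lower in LL2 tumors, and 1 to 4 higher and 0 to 3 lower in MC38 tumors. In CAFs it gave 6 to 10 genes that differed among models, 0 to 3 higher in EO771, 1 to 3 lower in LL2, 1 to 3 higher and 2 to 5 lower in MC38, 3 to 4 lower in Pan02, and unmoved counts of 2 lower in EO771, 2 higher in LL2 and 1 higher in Pan02. The count of genes lower in MC38 tumors was 1, not 2, with total-count scaling, which moved the median of all genes by 0.14 in MC38 and -0.12 in Pan02. With the replicate number as a replicate block it was also 1. Deviations of same-numbered tumors had correlations from -0.17 to 0.26 (median 0.03, beside 0.01 for unlike numbers). In CAFs they ran from -0.14 to 0.28 (median 0.11, beside -0.11). With 2 libraries per CAF model the values for like and unlike numbers mirror each other, so they cannot decide on a pairing. The main fits did not take the numbers to pair the samples. In CAFs, genes higher in EO771 numbered 2 without a fold threshold, 1 with a pseudocount of 0.1 and 1 with edgeR on recovered reads, in place of 0, and those higher in Pan02 numbered 2, 2 and 3, in place of 1. Genes lower in LL2 numbered 2 with the longest transcript, in place of 1, and genes higher in MC38 numbered 1 without a filter, in place of 2. The sign of Igfbp7 in MC38 CAFs turned to 0.36 (adjusted p = 0.552) with edgeR on recovered reads and to 1.19 without MC38 CAF 2 (-1.28 without MC38 CAF 1), and that of Igfbp5 in MC38 CAFs turned to 0.43 without MC38 CAF 2 (-1.13 without MC38 CAF 1). The causes of these changes were not tested. Depth limits Igf2 in EO771 CAFs and Igfbp2 in LL2 CAFs, at 9 reads or fewer.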
